A study of Mus musculus with 13 samples.

Results

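Connecting tubule (CNT) nuclei are 1 of the 13 annotated cell types in a single nuclei ATAC-seq (snATAC-seq) map of the mouse kidney, an assay that tags open chromatin in each nucleus with a transposase. The members were all nuclei with the cluster name CNT in the deposited annotation, 879 of 28316 nuclei, and they were compared with the 26773 nuclei of the other 12 cell types. The study profiled whole kidneys from 2 samples at postnatal day 0 (P0, called 1-day-old mice in the labels), 1 sample at 3 weeks (P21) and 2 samples at 8 weeks (P56). No treatment, transgene or deletion is named for any sample. The methods name C57BL/6 for the mice of the matched scRNA-seq and give no strain for the snATAC-seq mice. P21 and P56 are grouped here as adult, and whether each sample holds 1 animal or several is not given in the sources used here. So p-values between stages within CNT measure the spread between these samples. Tests between cell types fit sample as a block, and their p-values measure the spread left over all 13 cell types. The clusters were drawn with a batch correction across all 5 samples.

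The connecting tubule lies between the distal convoluted tubule (DCT) and the collecting duct. Its cells take up calcium through the apical channel Trpv5, buffer it with calbindins and extrude it across the basolateral membrane by the exchanger Slc8a1 and calcium pumps, and they take up sodium through the aldosterone-regulated epithelial channel ENaC. Parathyroid hormone, vitamin D and aldosterone act on this segment, and its cells shade into DCT cells on the upstream side and into principal cells (PC) of the duct on the downstream side.

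The markers given for CNT were Trpv5 and Calb1 (calbindin-D28k, the cytosolic calcium buffer). Gene activity is the number of open calls (a nucleus with a given peak open) in a gene and 2 kb upstream, scaled as CPM to the total open calls of the cell type in the sample, so that sums of different size can be set side by side. Values by sample are given in the order P0 sample 1, P0 sample 2, P21, P56 sample 1 and P56 sample 2. Trpv5 gene activity in CNT nuclei was 37.6, 35.3, 131, 86.5 and 116. In DCT nuclei it was 39.5, 39.3, 10.8, 12.1 and 12.6, so the marker was far higher in CNT in the 3 adult samples and slightly lower in CNT than in DCT in both P0 samples. Calb1 gene activity in CNT nuclei was 29.6, 44.1, 209, 136 and 141, and in DCT nuclei 63.2, 68.8, 118.7, 40.8 and 89.3, again with DCT above CNT in both P0 samples. Each marker was highest in CNT among the 13 cell types in 3 of 5 samples, the adult ones. The study used Trpv5 to name this cluster in the same nuclei, so its level is a description of the cluster and no independent check of the label. At P0 the markers did not set CNT apart from DCT, and the nuclei are called CNT there by their cluster name only. The peaks of Trpv5 were open in 18.5% to 51.1% of CNT nuclei by sample and in 0.140% to 1.70% of endothelial nuclei, which should lack the gene. The median number of open peaks by sample was 3240.5 to 8170 per CNT nucleus and 2099 to 7195.5 per endothelial nucleus.

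Markers of proximal tubule, endothelial and immune cells were low. The summed gene activity of 6 proximal tubule markers in CNT nuclei averaged 52.5 CPM (range 34.2 to 87.0), 7.89% of the level in proximal convoluted tubule (PCT) nuclei and the lowest of the 13 cell types. The sums over 5 endothelial and 5 immune markers were 7.39% and 4.66% of the level in their own cell types. Those over podocyte, stromal and nephron progenitor markers were 15.6%, 17.3% and 35.2%. The sums for neighbouring segments stood higher than the proximal, endothelial and immune ones, but that of the loop of Henle was below the nephron progenitor one. The 4 PC markers (Aqp2, Aqp3, Fxyd4 and Avpr2) stood at 56.1% of the PC level, the 3 DCT markers (Slc12a3, Pvalb and Trpm6) at 39.8% of the DCT level, the 4 intercalated cell (IC) markers at 37.4% and the 4 loop of Henle (LOH) markers at 20.3%. These ratios pool the stages. The DCT marker sum in CNT was 107 and 108 at P0 and 396 to 567 in adult samples. The PC marker sum in CNT was 101 and 113 at P0 and 81.0 to 118 over all samples, beside 86.6 to 273 in PC nuclei. No marker was at 0 over all CNT nuclei. No doublet caller was run, and the part of doublets in these sums was not tested. The median number of open peaks per CNT nucleus was below that of both DCT and PC nuclei in P0 sample 1 (6263 against 8025 and 6554.5) and above both in P0 sample 2 and in both P56 samples.

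The samples held 135, 101, 83, 294 and 266 CNT nuclei. These were 2.28%, 1.89%, 2.55%, 4.24% and 4.29% of the nuclei in the 13 cell types, with exact 95% binomial intervals, which cover counting error only, of 1.92% to 2.70%, 1.54% to 2.29%, 2.04% to 3.15%, 3.78% to 4.74% and 3.80% to 4.83%. The mean share was 2.08% ± 0.281 (SD, n = 2) at P0 and 3.70% ± 0.991 (SD, n = 3) in adult samples. The groups did not overlap, and the difference of 1.61 percentage points gave p = 0.2 in a two-sided exact permutation test, the smallest p that 2 against 3 samples can give. Relative to its neighbours, CNT was numerous against DCT at P0, with 2.65 and 1.77 CNT nuclei per DCT nucleus, and outnumbered by DCT in adult samples, with 0.822, 0.958 and 0.613. The order was opposite against PC, with 0.343 and 0.289 CNT nuclei per PC nucleus at P0 and 0.806, 1.11 and 1.25 in adult samples. Both ratios separated the stages without overlap at the same smallest exact p of 0.2. Library pairs shared 24 to 73 barcodes, and at most 1 shared barcode was CNT in both. CNT sums held 367747 to 1653442 open calls. In the matched scRNA-seq, none of the 16 cluster names of 43636 cells was CNT, so its expression data were not used here.

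To find which cell types CNT chromatin resembled, open calls were summed per sample and cell type and compared with the quasi-likelihood test of edgeR, with a false discovery rate of 0.05 by Benjamini-Hochberg (BH) over all features tested. The clusters were made from the same chromatin, so the tests between cell types order peaks and genes and do not test whether CNT is a distinct cell type. Of 77118 peaks tested, 1858 (2.41%) differed between CNT and DCT, far fewer than for any other pair. The counts against IC, PC and LOH were 6520, 6582 and 6925. They were 21455 against nephron progenitors (NP), 23768 against podocytes and 24830 against immune nuclei, and 32694 to 41245 against the proximal straight tubule (PST), PCT, endothelial and both stromal types. Counts of differing peaks also depend on how many nuclei each sum holds. The Spearman correlation of mean log2 accessibility across peaks, which are not independent replicates, gave DCT (0.91), LOH (0.89), PC (0.87) and IC (0.83) as the nearest types.

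**Figure D1:**
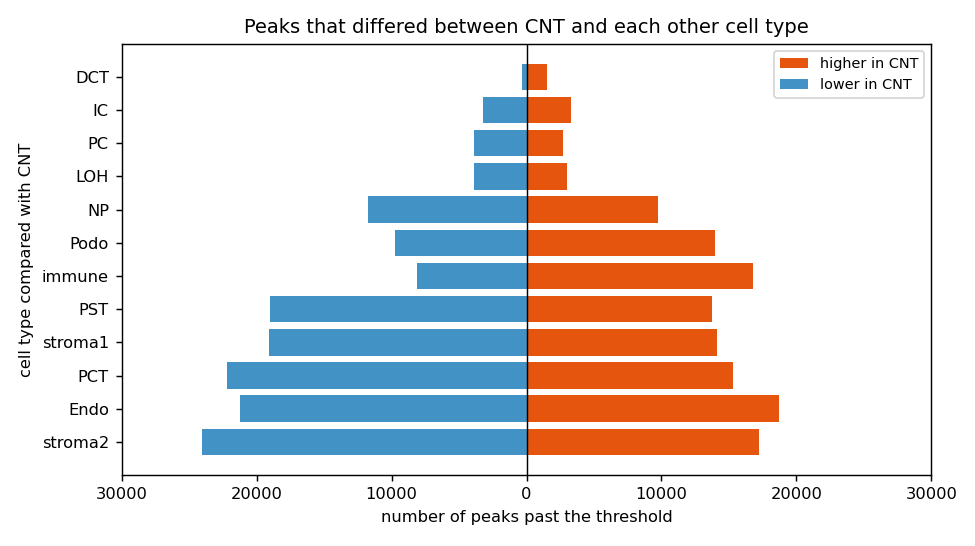
Number of peaks that passed the edgeR threshold (BH 0.05) between CNT and each other cell type, with peaks higher in CNT to the right and lower in CNT to the left. DCT differed in 1858 peaks and stroma2 in 41245.

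The order of the nearest types by correlation differed between samples. In both P0 samples the cell type most correlated with CNT was PC (0.87 and 0.86), followed by LOH and DCT. In both P56 samples it was DCT (0.83 and 0.88), followed by LOH and PC. In the P21 sample LOH (0.73) and DCT (0.72) were nearest and PC (0.64) was below IC (0.68). Of DCT and PC, the type with more nuclei was the nearer at P0 and P56, with 51 and 57 DCT nuclei against 394 and 350 PC nuclei at P0, and 307 and 434 DCT against 266 and 212 PC nuclei at P56, and the part of sum size in it was not tested.

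When the other 12 cell types were averaged, 13910 peaks (18.0%) were higher and 7245 (9.39%) lower in CNT, and 3497 genes (13.8%) had higher and 2496 (9.83%) lower gene activity in CNT than that average. Of the differing peaks 65.8% were higher in CNT here, 76.0% with DESeq2 and its size factors, and 83.0% without P56 sample 2, which left 13243 peaks. Most of these features had their highest level in another cell type. Of the 13910 peaks, CNT had the highest mean log2 accessibility over samples in 2307 (16.6%), where it led 3.28% of all tested peaks. PC led 2928 (21.05% against 6.47% of all tested peaks), LOH 2277 (16.4% against 7.27%) and DCT 1811 (13.02% against 2.94%). Of the 3497 genes, CNT led in 634 (18.1%), DCT in 696 and PC in 512. The peaks higher in CNT lay in introns or distal regions in 72.8% of cases and over a transcription start in 12.01%, while all tested peaks gave 62.0% and 22.6%. Against DCT, 1527 peaks (1.98%) were higher and 331 (0.429%) lower in CNT. Against PC, 2716 (3.52%) were higher and 3866 (5.01%) lower, a split of 41.3% higher that was 51.6% higher with DESeq2. The DCT count depended on single samples, with 351 to 897 peaks when any 1 sample was left out. Without P56 sample 2 the PC count fell to 1988 peaks, of which 1170 were higher and 818 lower, and without P56 sample 1 it was 3538. The gene count against DCT (351) was 88 to 150 without any 1 adult sample, and that against PC (1790) was 516 to 935.

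A peak that was higher in CNT in all 12 pairwise contrasts, with the largest of the 12 p-values passing BH, was found once among 77118 peaks (0.00130%). This peak (chrX:162960471-162961568, mm10) lies in an intron of Ctps2, a CTP synthase gene, 3.6 kb downstream of the start of S100g, which is encoded on the opposite strand inside Ctps2 and makes calbindin-D9k, a calcium buffer. It was open in 7.41%, 4.95%, 26.5%, 18.7% and 42.1% of CNT nuclei, against a mean of 3.69% in DCT nuclei (range 0.651% to 7.84%), the next highest type. It was thus low in both P0 samples and high in the adult ones, and its lead over DCT was 2.85 ± 0.53 (SE) on the log2 scale (edgeR BH p for the 12 contrasts together 0.0433). Leaving out any 1 sample ended this call. A peak with the next largest lead, chrX:162969979-162970499, lies 5.6 kb upstream of the S100g start, also inside Ctps2, and was open in 9.63%, 8.91%, 13.3%, 8.84% and 25.2% of CNT nuclei, the highest of the 13 types in 5 of 5 samples. The next peak by lead, chr6:41680913-41681265, lies 320 bp upstream of the Trpv5 start. It was open in 6.67%, 10.9%, 16.9%, 9.18% and 20.3% of CNT nuclei. The fifth, chr17:81671506-81672010, is in an intron of Slc8a1, the sodium-calcium exchanger, and was open in 2.22%, 2.97%, 20.5%, 9.18% and 21.8%. In DCT nuclei this exchanger peak had a mean of 4.70% (range 0 to 11.8%), so single samples of the 2 types overlapped. Other peaks among the 10 with the largest lead included those in introns of Atf7ip, Tbck and Celf2, in an exon of Cog7 that is 98.1 kb from the start of Scnn1b, and near Igsf21.

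The central 300 bases of 5 peaks are shown as examples at calcium and sodium uptake genes: both S100g-flanking peaks, the peak just upstream of Trpv5, the Slc8a1 intron peak, and a Scnn1b intron peak (chr7:121874203-121875305) that was open in 34.1%, 37.6%, 24.1%, 26.9% and 31.6% of CNT nuclei. The first 4 are among the 10 peaks with the largest lead, and other peaks of Trpv5 and Slc8a1 were open in more CNT nuclei. The sequences are from GRCm38, plus strand, 5′ to 3′. Capitals mark matches to the motifs searched (given with the motif results), and neither S100g-flanking window held a match.
S100g downstream (chrX:162960870-162961169): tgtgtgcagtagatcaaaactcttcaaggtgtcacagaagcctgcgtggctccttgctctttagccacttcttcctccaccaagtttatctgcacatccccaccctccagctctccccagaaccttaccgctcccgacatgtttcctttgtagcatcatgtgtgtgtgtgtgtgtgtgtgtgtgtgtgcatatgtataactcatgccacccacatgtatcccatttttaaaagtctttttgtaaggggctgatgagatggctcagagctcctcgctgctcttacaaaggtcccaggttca
S100g upstream (chrX:162970090-162970389): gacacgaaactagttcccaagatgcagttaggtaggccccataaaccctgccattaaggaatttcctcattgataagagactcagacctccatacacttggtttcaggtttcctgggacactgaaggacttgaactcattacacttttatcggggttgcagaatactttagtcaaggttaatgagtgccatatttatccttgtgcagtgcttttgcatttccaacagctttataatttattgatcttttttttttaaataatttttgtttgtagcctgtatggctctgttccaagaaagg
Trpv5 upstream (chr6:41680940-41681239): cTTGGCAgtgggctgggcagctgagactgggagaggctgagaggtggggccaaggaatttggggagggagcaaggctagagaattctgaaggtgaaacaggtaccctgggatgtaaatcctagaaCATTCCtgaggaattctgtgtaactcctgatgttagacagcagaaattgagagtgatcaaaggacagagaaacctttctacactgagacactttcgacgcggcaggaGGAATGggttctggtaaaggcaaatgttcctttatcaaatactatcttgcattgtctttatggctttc
Slc8a1 intron (chr17:81671609-81671908): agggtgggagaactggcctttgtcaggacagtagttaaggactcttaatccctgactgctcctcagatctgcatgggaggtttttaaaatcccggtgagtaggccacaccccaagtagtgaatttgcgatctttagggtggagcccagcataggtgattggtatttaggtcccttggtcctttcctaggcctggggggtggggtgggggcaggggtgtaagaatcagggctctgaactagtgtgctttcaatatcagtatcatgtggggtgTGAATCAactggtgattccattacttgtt
Scnn1b intron (chr7:121874605-121874904): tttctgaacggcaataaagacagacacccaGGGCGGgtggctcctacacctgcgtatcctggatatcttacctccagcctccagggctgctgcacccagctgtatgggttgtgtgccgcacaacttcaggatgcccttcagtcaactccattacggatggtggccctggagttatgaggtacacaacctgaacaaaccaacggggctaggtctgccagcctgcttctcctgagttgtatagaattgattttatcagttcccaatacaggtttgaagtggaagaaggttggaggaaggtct
In the Trpv5 window, the capitals at bases 2 to 7 are an NFI monomer motif, and those at bases 126 to 131 and 233 to 238 are TEAD motifs on opposite strands. The Slc8a1 window held an AP-1 motif at bases 272 to 278, and the Scnn1b window an SP and KLF motif at bases 31 to 36. A match is a description of the letters and not of a bound factor.

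With the adult samples alone, 11 of 59004 peaks (0.0186%) and 5 of 22925 genes (0.0218%) were higher in CNT than in each other type. The peaks included both S100g-flanking peaks, the peak over the S100g start itself, the Trpv5 upstream and Slc8a1 intron peaks, and peaks in Akap6 and Med9 or near Lrp2, Igsf21 and Klk1. The genes were Trpv5 (lead over the next type 1.68, log2), Ctps2 (1.48), Slc8a1 (1.18), Med9 (0.88), a Mediator subunit gene, and Myo19 (0.71), a mitochondrial myosin gene. The P0 samples alone gave 0 such peaks and 0 such genes. Since Trpv5 was used to name the cluster, its lead is a description of the cluster. The peak over the S100g start was open in 14.1%, 12.9%, 15.7%, 13.6% and 22.2% of CNT nuclei. As a share of nuclei, not scaled to depth, it varied less between samples than the peak 3.6 kb away.

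Calcium transport genes were higher in CNT. Of 12 genes of calcium uptake and its control, 11 rose and 0 fell against that 12-type average, where 13.8% of all genes rose and 9.83% fell, with a median log2 fold change of 1.28 against -0.03 over all tested genes. The list includes Trpv5 and Calb1, the markers of the cluster. Atp2b4 (0.14), Vdr (0.29) and Fxyd2 (0.35) did not pass in the P0 samples alone. CNT had the highest mean gene activity of the 13 types for Trpv5, Trpv6 (a second apical calcium channel), Calb1, S100g, Slc8a1 and Kl (klotho, a co-receptor of Fgf23). For Kl the CNT mean of 85.8 was close to that of PCT (83.3) and DCT (74.6). Trpv6 gene activity was low, at 17.1, 16.4, 10.9, 12.1 and 14.5, with a mean of 14.2 ± 2.68 (SD, n = 5), and both P0 values lay above the adult ones. S100g gene activity rests on 1 peak, the peak over its start, so it is no separate observation. It was 21.6, 16.4, 35.4, 40.2 and 35.7, lower in both P0 samples than in any adult sample. As shares of nuclei, without scaling to depth, the stages overlapped at this peak. Slc8a1 gene activity was 165, 164, 696, 631 and 399.8, and in PC it never passed 146. The next type for Slc8a1 was stroma1, whose mean of 241 lay above both P0 values of CNT, and CNT was highest in 3 of 5 samples. The plasma membrane calcium pump Atp2b1 was the member that did not pass, at a mean of 96.1 ± 22.4 (SD, n = 5) and a log2 fold change of -0.16.

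Against PC, 10 of the 12 calcium genes were higher in CNT (2.93% of all 25393 genes were), with Calb1 at 2.01 ± 0.39 (log2 ± SE), Fxyd2, a Na,K-ATPase subunit, at 2.17 ± 0.33, Slc8a1 at 1.62 ± 0.29 and Pth1r, the parathyroid hormone receptor, at 1.11 ± 0.15. The call for Casr, the calcium-sensing receptor, was lost without the P21 sample (0.72) or P56 sample 1 (0.80). In the P0 samples alone the PC differences were small for Calb1 (0.26), Slc8a1 (0.21), Kl (0.45) and Vdr (0.37), which did not pass, while Fxyd2 (1.81), Trpv5 (1.095) and 4 others passed. Against DCT only Trpv5 (1.98 ± 0.41, edgeR BH-adjusted p = 0.00326) and Slc8a1 (1.12 ± 0.29, adjusted p = 0.0283) passed, where 0.973% of all genes were higher and 0.410% lower in CNT. Both calls rested on the adult samples. Without the P21 sample or either P56 sample they were lost, with Trpv5 at 1.54 to 1.77 and Slc8a1 at 0.82 to 1.096. In the P0 samples alone the differences were -0.059 for Trpv5 and -0.47 for Slc8a1, and neither passed. Calb1 against DCT was 0.62 ± 0.37 and did not pass. Trpv5 was used to name the cluster, so its calls against PC and DCT describe the cluster and are no independent support.

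**Figure D2:**
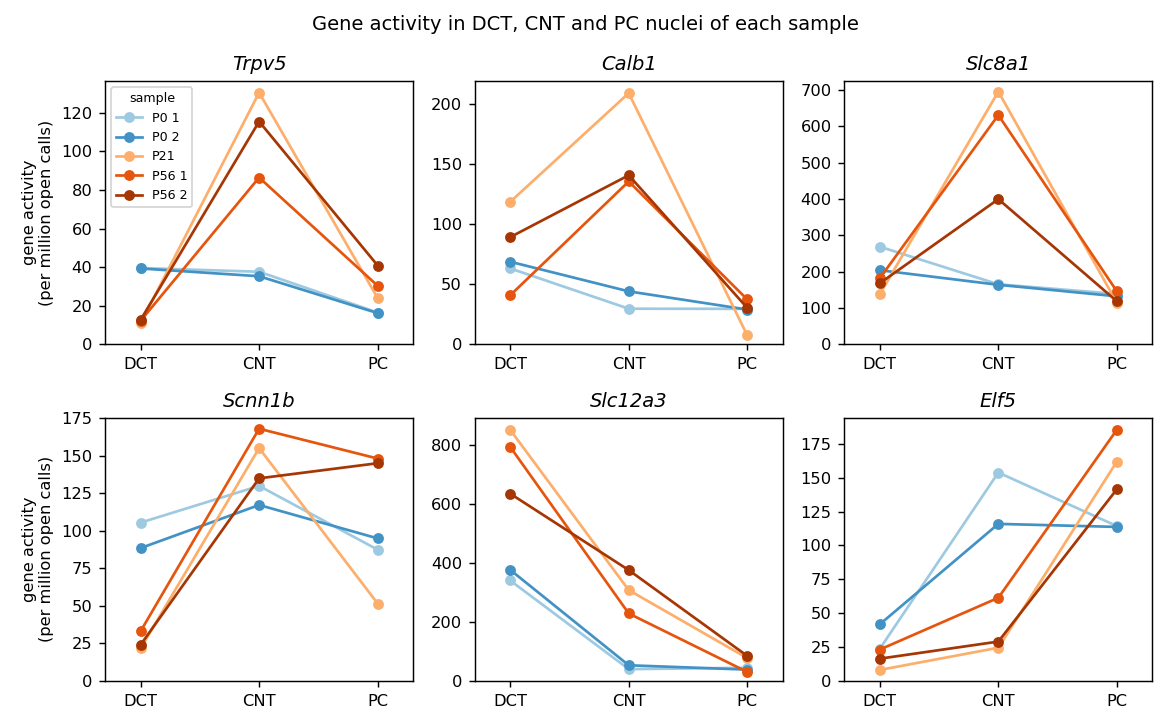
Gene activity (CPM of open calls) of 6 genes in DCT, CNT and PC nuclei, 1 line per sample with P0 samples in blue and adult samples in orange. Trpv5 and Slc8a1 peak in CNT in the 3 adult samples only, while Slc12a3 is highest in DCT in every sample.

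Of 11 sodium channel, aldosterone and potassium genes, 3 were higher in CNT than in DCT and 0 lower. Scnn1b and Scnn1g, the beta and gamma subunits of ENaC, and Hsd11b2, the enzyme that shields the mineralocorticoid receptor from glucocorticoids, were these calls, where 0.973% of all genes were higher. Scnn1b gene activity in CNT nuclei was 129.8, 117, 155, 168 and 135, while DCT nuclei ranged from 21.6 to 105, so the 2 types did not overlap. The Scnn1b difference was 1.65 ± 0.31 (log2 ± SE) and the Scnn1g difference 1.42 ± 0.25. Hsd11b2 differed by 0.92 ± 0.25 (adjusted p = 0.0408), a call that was lost without the P21 sample (0.80) or either P56 sample (0.85 and 0.78). The Scnn1b call was lost without P56 sample 1, at 1.45. In the P0 samples alone none of the 3 passed, with Scnn1b at 0.41, Scnn1g at 0.48 and Hsd11b2 at 0.12. The alpha subunit Scnn1a, at a mean of 129.8 ± 47.9 (SD, n = 5) in CNT and 136 in DCT, and the receptor Nr3c2, at 296 and 304, were within the spread of DCT. Against PC, Klk1 (tissue kallikrein, a protease released by CNT cells) was higher in CNT by 3.11 ± 0.51, Sgk1 (an aldosterone-induced kinase) was lower by -0.56 ± 0.16, and the ENaC subunits did not pass. Against the mean of the 12 types, 7 of 11 rose (13.8% of all genes did) and 1, Sgk1, fell (9.83% did), a call that was lost without P0 sample 1 (-0.32), the P21 sample (-0.37) or P56 sample 2 (-0.39). The Sgk1 call against PC was lost without the P21 sample or either P56 sample (-0.41 to -0.54). At P0 alone, neither Klk1 (1.31) nor Sgk1 (-0.15) passed against PC.

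Among DCT genes, Slc12a3 lay between DCT and PC. Slc12a3, the thiazide-sensitive sodium chloride cotransporter that defines DCT, had CNT gene activity of 39.9, 52.9, 307, 228 and 375, below DCT in every sample (DCT range 339.8 to 849.7). At P0 the CNT values lay within the PC range of 30.3 to 84.4, and in adult samples they lay far above it. The difference was -1.76 ± 0.23 (log2 ± SE, edgeR BH-adjusted p = 2.92e-06) against DCT and 1.495 ± 0.25 against PC. Of 9 DCT genes, 2 were lower in CNT than in DCT, Slc12a3 and Pvalb (0.410% of all genes were), and 5 were higher than in PC (Slc12a3, Trpm6, Cnnm2, Wnk1 and Klhl3, beside 2.93% of all genes). The Wnk1 call was lost without P56 sample 2 (0.43). With P0 samples alone, Slc12a3 (0.09), Trpm6 (0.37), Cnnm2 (0.22) and Wnk1 (0.068) did not pass against PC. Pvalb (parvalbumin) rested on 28 open calls in CNT, and its call was lost without P0 sample 1, the P21 sample or P56 sample 1 (-1.93 to -2.13). The magnesium channel Trpm6 had a CNT mean of 133 ± 69.7 (SD, n = 5), against 234 in DCT and 41.5 in PC. Its difference from DCT was -0.83 ± 0.24 and missed the threshold (adjusted p = 0.0709).

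Of 7 PC genes, 4 were higher in CNT than in DCT (Aqp3, Avpr2, Fxyd4 and Elf5, beside 0.973% of all genes) and 5 lower than in PC (Aqp2, Aqp4, Fxyd4, Apela and Elf5, beside 4.12%). Fxyd4 and Elf5 passed in both contrasts. With P0 samples alone, Elf5 was not lower than in PC (0.18), and Aqp2 (-0.46), Aqp4 (-0.74) and Fxyd4 (-0.62) did not pass. Aqp2, the vasopressin-regulated water channel, had CNT gene activity of 19.4, 20.1, 35.4, 40.2 and 38.1, and PC ranged from 23.5 to 112. The vasopressin receptor gene Avpr2 was at 12.5, 11.3, 5.44, 20.1 and 16.3. Elf5, a transcription factor gene of principal cells, had the widest stage contrast of the list, with CNT gene activity of 153.7, 116, 24.5, 61.3 and 29.0 by sample, high at P0, with PC between 114 and 185 throughout. The calls for Aqp2, Fxyd4, Apela and Elf5 against PC were each lost without the P21 sample or either P56 sample, where Aqp2 was -1.03 to -1.15, Fxyd4 -1.22 to -1.60, Apela -1.23 to -1.51 and Elf5 -0.64 to -0.81. The calls for Aqp3, Avpr2 and Fxyd4 against DCT were also lost without P56 sample 1 (1.25, 1.98 and 2.35) and in other single omissions. With P0 samples alone, Aqp3 (0.98), Avpr2 (0.94) and Fxyd4 (2.59) did not pass against DCT, nor did Fxyd4 (1.83) with adult samples alone.

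**Figure D3:**
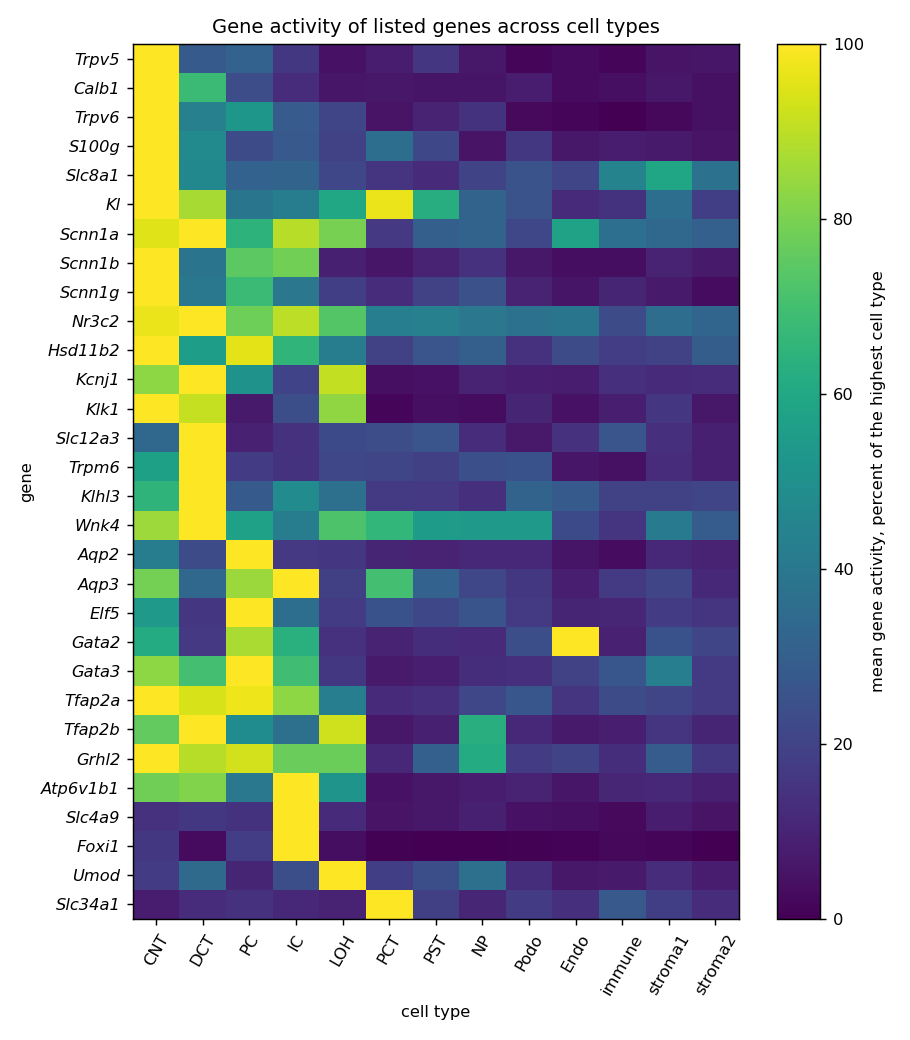
Mean gene activity of 30 listed genes in the 13 cell types over 5 samples, as a percent of the cell type with the highest mean. Trpv5, Calb1, S100g and Slc8a1 reach 100 in CNT, Slc12a3 in DCT, Aqp2 in PC and Foxi1 in IC.

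Of 11 IC genes, 2 were higher and 1 lower in CNT than in PC (2.93% and 4.12% of all genes were). The lower one, the carbonic anhydrase gene Car2, lost the call without the P21 sample or either P56 sample (-0.53 to -0.84). The proton pump subunit gene Atp6v1b1 was higher in CNT than in PC (0.93 ± 0.21, log2 ± SE), with a CNT mean of 101 ± 30.9 (SD, n = 5) beside 104 in DCT and 129 in IC. Oxgr1, the 2-oxoglutarate receptor gene, was higher by 3.42 ± 0.40, with CNT gene activity of 15.9, 17.6, 38.1, 47.3 and 48.4 and PC at or below 7.04. Its means in IC (84.9) and DCT (38.5) were above that in CNT (33.5). The proton pump subunit gene Atp6v1g3 and the anion exchanger gene Slc4a1, which define IC, gave 10 and 9 open calls in 879 CNT nuclei. Foxi1, the transcription factor that specifies IC, was higher in CNT than in DCT by 3.27 ± 0.73 on 35 open calls, and its difference from PC was -0.12 ± 0.44. The Foxi1 call was lost without either P56 sample (3.44 and 2.26). Of 11 IC genes, 5 rose and 1, Slc4a1, fell against the 12-type average (13.8% and 9.83% of all genes did). The Slc4a1 call was lost in each omission (-0.72 to -1.36) and with DESeq2 (-1.17). Among the rises, Slc26a4 was lost without P56 sample 2 (0.89) and Slc4a9 without P56 sample 1 (0.59).

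Of 20 transcription factor genes of the distal nephron and duct, 16 rose and 1, Irx3, fell against the mean of the 12 types, with a median of 1.13 (log2), where 13.8% of all genes rose and 9.83% fell. Emx2 (0.36 to 0.53), Esrrb (0.27 to 0.49), Lhx1 (0.57 to 0.58) and Irx3 (-0.79) lost the call in 1 to 3 of the 5 omissions. Against DCT 2 of 20 passed, where 0.973% of all genes were higher and 0.410% lower, and against PC 3 of 20, where 2.93% were higher and 4.12% lower. Tfap2a (169 ± 44.0, SD, n = 5) and Grhl2 (208 ± 56.7) had their highest mean in CNT, with PC next in both at 165 and 194. Against DCT, Gata2 was higher in CNT (2.15 ± 0.31, log2 ± SE) and Esrrb, an orphan nuclear receptor gene, lower (-1.14 ± 0.24). Gata2 gene activity was 55.8, 79.3, 117, 80.4 and 88.9 in CNT and 11.02 to 31.9 in DCT, and the groups did not overlap. Mean Gata2 gene activity was 137 in endothelial, 120 in PC and 87.0 in IC nuclei, all above the CNT mean of 84.3. Against PC, Emx1 (1.14 ± 0.25) and Esrrb (0.95 ± 0.26) were higher in CNT and Pax2 (-0.65 ± 0.19) lower. The Esrrb call against DCT was lost without P56 sample 1 (-1.07), and the Esrrb and Pax2 calls against PC without the P21 sample or either P56 sample (0.63 to 0.93 and -0.49 to -0.58). At P0 alone, Esrrb was at -0.059 and Pax2 at -0.038 against PC, and Esrrb at -0.24 against the mean of 12. All 9 junction and epithelial genes (claudins 3, 4, 7 and 8, Cdh1, Cdh16, Epcam, Krt8 and Krt18) rose against the mean of the 12 (13.8% of all genes did), Krt18 not without P0 sample 1 (0.68), and 0 passed against DCT or PC. Among genes of other types, 6 of 8 tested PT genes and 5 of 7 endothelial genes fell, while of 7 LOH genes 1 rose (Cldn16) and 1 fell (Cldn10). The calls for Cyp4b1, Slc5a12, Slc5a8 and Slc7a7 (PT, -0.42 to -1.48), Cdh5, Emcn, Flt1 and Plvap (endothelial, -0.51 to -1.74) and Cldn10 (-0.28) were lost in at least 1 omission. Of the remaining lists, 2 of 6 stromal and 1 of 7 podocyte genes fell, and 0 of 7 NP and 0 of 5 immune genes passed in either direction. With 9.83% of all genes lower, such small counts are near the background and say nothing about these lists. Acta2, 1 of the stromal calls, was lost in 3 omissions (-0.56 to -0.74).

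Among all named genes, those higher in CNT than DCT with the largest fold were Tm4sf20, Guca2a, Foxi1, Mup-ps23, Syt15, Fxyd4, Adgrl4 and Hcar1. Guca2a, the guanylin gene, had CNT gene activity of 14.8, 21.4, 24.5, 29.2 and 10.3 against 0 to 7.90 in DCT, a difference of 3.37 ± 0.54 (log2 ± SE). PC held it at 12.3 to 20.3, so this level was shared with PC, and IC, the highest type, held it at 41.1 to 47.8. In the P0 samples alone the difference from DCT was 1.87 and did not pass. Tm4sf20 (12.5, 13.9, 2.72, 2.01 and 2.42) and Syt15 (18.2, 13.9, 2.72, 1.01 and 1.21) owed their CNT level to the P0 samples. The largest falls against DCT were in Erich4, Pvalb, Adamtsl3, Slc12a3, Platr28, Tpte, Prox1os and Cdcp2. Adamtsl3, a secreted glycoprotein gene, was at 33.0, 41.6, 27.2, 18.1 and 27.8 in CNT and 59.0 to 129 in DCT. Of these 16 genes, 3 (Adamtsl3, Guca2a and Slc12a3) kept the call with each sample left out in turn.

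Against PC the gains were led by the kallikrein cluster, with Klk15, Klk1b3, Klk1b2-ps, Klk1b22 and Klk1 among 8 genes, beside Ifi206, Oxgr1 and Tbc1d22bos. Klk15 gene activity was 27.3, 26.4, 103, 97.5 and 101 in CNT and 0.747 to 11.3 in PC, a difference of 4.32 ± 0.50 (log2 ± SE). DCT held 37.5 to 56.5, so Klk15 was between the P0 and adult CNT values there. The Klk1b genes are near-identical copies whose reads may be split between them, so single members are uncertain. In the gene-level comparison with PC, 4.12% of genes were lower in CNT. The 8 largest falls (Mroh4, Mndal, Bcl2a1d, Erich4, Pxt1, Calr4, Ift88os and Platr6) rested on 0 to 4 open calls each in CNT. Mroh4, with 0 open calls in CNT and 9.38 to 35.0 CPM in PC, was the clearest, and no fold is given for it. The 10 genes with the largest lead over the next cell type were Trpv5, S100g, Klk1b9, Ctps2, Trpv6, Med9, Slc26a3 (a chloride-bicarbonate exchanger), Ankrd66, Klk1b2-ps and Slc8a1. Ctps2 and S100g overlap on opposite strands, so their shared peak counts for both.

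To place CNT nuclei between their neighbours, peaks higher in DCT (4538) or in PC (9977) were taken from a fit that left CNT out. For each nucleus, thinned to 1000 open peaks, the share of DCT peaks among its open DCT and PC peaks was computed for 854 of 879 CNT nuclei, the other 25 being too shallow. The CNT median was 23.3%, 25.5%, 61.2%, 52.6% and 66.3% by sample. PC medians lay between 14.3% and 19.4% and DCT medians between 61.4% and 80.6%. P0 CNT nuclei therefore lay near PC, and adult CNT nuclei nearer to DCT, with the stages not overlapping. LOH nuclei, which are not between these segments, moved in the same way, with medians of 32.3%, 34.6%, 60.2%, 57.5% and 62.8%, so the shift is not particular to CNT and the index alone does not identify CNT. Unthinned nuclei gave 23.3%, 25.2%, 61.0%, 52.2% and 68.0%. The share of CNT nuclei at or below the 95th percentile of PC nuclei of the same sample was 41.4%, 29.7%, 16.3%, 4.27% and 14.0%. The share at or above the 5th percentile of DCT nuclei was 7.03%, 31.7%, 27.5%, 35.2% and 62.1%. So most adult CNT nuclei of P56 sample 2 fell in the DCT range, while in P56 sample 1 most lay between the ranges.

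**Figure D4:**
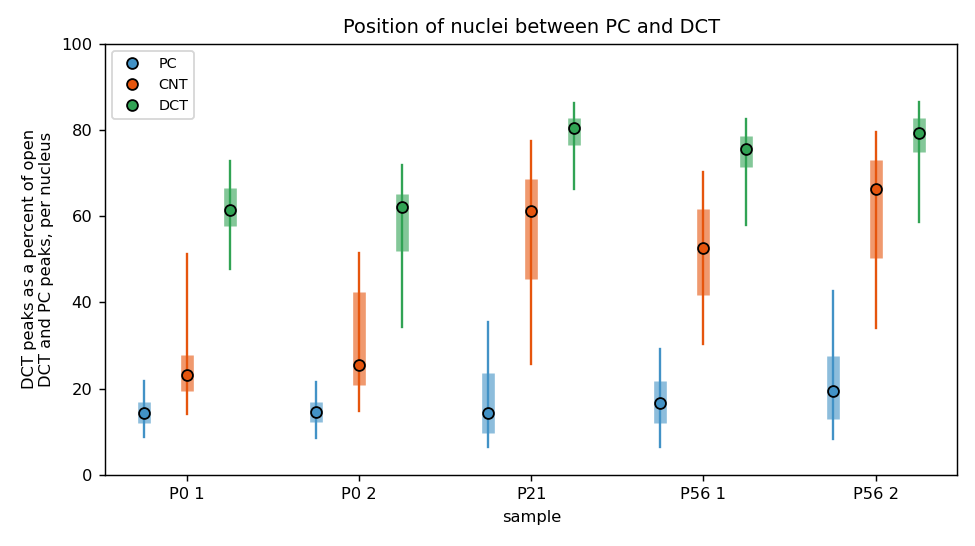
Share of DCT peaks among the open DCT and PC peaks of each nucleus (percent), for PC, CNT and DCT nuclei of each sample, thinned to 1000 open peaks; points are medians, bars the middle 50% and lines the 5th to 95th percentile. CNT medians are 23.3% and 25.5% at P0 and 52.6% to 66.3% in adult samples.

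The sums also separated the P0 from the adult samples for CNT. On a scale from 0 (PC) to 100 (DCT), CNT accessibility at the DCT peaks was 24.5, 33.6, 64.2, 64.4 and 75.5, and its position at the PC peaks, on a scale from 0 (DCT) to 100 (PC), was 64.0, 54.4, 30.4, 33.0 and 22.1. LOH gave 33.9, 42.9, 57.6, 71.9 and 66.8 on the first scale, with the same separation of the stages, and 31.3, 26.9, 26.4, 22.4 and 20.96 on the second. With DCT and PC peaks from the adult samples alone, a choice made after seeing the data, the first scale gave 17.4 and 26.0 at P0 and 51.7 to 65.3 in adult samples. With those from the P0 samples alone it gave 24.3 and 29.3 at P0 and 60.1 to 76.4 in adult samples. The number of peaks that separated CNT from its neighbours also differed by stage. At P0, 233 of 174406 peaks (0.134%) differed from DCT and 2589 (1.48%) from PC, and in adult samples 2871 of 59004 (4.87%) and 9244 (15.7%). For genes, 1.59% of 29375 differed from DCT and 3.81% from PC at P0, and 4.32% of 22925 and 15.6% in adult samples. The DCT sums at P0 held 51 and 57 nuclei, and the stages also differ in the number of samples, so these counts are not a test of the difference between stages.

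Within CNT, the 2 P0 samples were compared with the 3 adult samples, a contrast the cluster rule did not use. The P0 nuclei are called CNT by their cluster name only. The part of a different cluster make-up at P0 in this contrast and in the interactions below was not tested. Of 24739 peaks tested, 2571 (10.4%) were higher in adult and 3011 (12.2%) higher at P0. Single samples moved this count and its split, with 1064 higher in adult and 478 at P0 without P0 sample 1, and 1622 and 1275 without P0 sample 2. DESeq2 gave 1080 and 1549. Of 19453 genes, 1895 (9.74%) were higher in adult and 2968 (15.3%) at P0. In place of these 4863 genes, 1514 passed without P0 sample 1, 2366 without P0 sample 2, 8118 without P56 sample 1 and 1964 with DESeq2. The adult-higher peaks were over a transcription start in 13.6% of cases and the P0-higher ones in 43.9%, with 49.9% among all tested. In calcium transport, 9 of 12 genes were higher in adult CNT and 0 at P0, beside these shares of all genes, with a median log2 change of 1.07 against 0.04 over all genes. Fxyd2 (2.35 ± 0.20, log2 ± SE), Calb1 (2.02 ± 0.22), Slc8a1 (1.73 ± 0.21), Kl (1.69 ± 0.20), Trpv5 (1.51 ± 0.21) and Vdr, the vitamin D receptor (1.23 ± 0.16), rose most, and all of them kept the call with each sample left out. Trpv6 did not pass (-0.40 ± 0.40). The S100g call (0.91 ± 0.30), on 1 peak, was lost without either P0 sample (1.16 and 0.74), and with equal numbers of nuclei per sample (0.67). The Pth1r call was lost without P0 sample 1 (0.50) and with DESeq2 (0.57), and the Casr call without P0 sample 2 (0.73).

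Among the sodium genes, 6 of 11 were higher in adult CNT (Scnn1a, Scnn1g, Nr3c2, Kcnj1, Klk1 and Tsc22d3) and 1, the potassium channel Kcnma1, was higher at P0 (-1.23 ± 0.21, log2 ± SE), where 9.74% of all genes were higher in adult CNT and 15.3% at P0. Klk1 gene activity was 3.42 and 7.56 at P0 and 76.1, 55.3 and 84.1 in adult samples, a rise of 3.66 ± 0.38. Scnn1b did not pass (0.24 ± 0.16). Of 8 DCT genes tested, 7 were higher in adult CNT (9.74% of all genes were), led by Slc12a3 (2.67 ± 0.22) and Trpm6 (1.55 ± 0.18). The Stk39 call was lost without P0 sample 2 (0.24) or the P21 sample (0.55) and with DESeq2 (0.45), and the Wnk4 call without P0 sample 1 (0.61) and with DESeq2 (0.75). Of 7 PC genes, Aqp2 was higher in adult CNT (0.91 ± 0.28), and Elf5 (-1.81 ± 0.27) and Aqp3 (-0.93 ± 0.29) were higher at P0, beside the same shares of all genes. The Scnn1a call was lost without P0 sample 1 (0.71), and the Scnn1g (0.78 and 0.61), Tsc22d3 (0.60 and 0.84), Aqp2 (0.91 and 0.94) and Aqp3 (-1.004 and -0.80) calls without either P0 sample. Tsc22d3 and Aqp3 were also lost without single adult samples, at as little as 0.47 and -0.51.

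At single peaks, shares of nuclei did not always separate the stages at the start. These shares are not scaled to depth. P0 CNT nuclei held a median of 6263 and 8170 open peaks, and adult ones 3936, 3240.5 and 6190.5. The part of depth was not tested. The Calb1 start peak (chr4:15881139-15881666) was open in 12.6%, 21.8%, 22.9%, 8.50% and 28.6% of CNT nuclei, with the stages overlapping. A peak at the 3′ end of Calb1 (chr4:15907681-15909405) was open in 1.48% and 2.97% at P0 and in 36.1%, 15.3% and 28.2% in adult samples. The Slc12a3 start peak (chr8:94328760-94329567) was open in 0.741% and 0 of P0 CNT nuclei and in 14.5%, 6.80% and 38.7% of adult ones.

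The largest named adult gains were in Perm1, Adh6a, Klk1b11, Klk1, Sult1c2-ps1, Klk1b7-ps, Klk1b22 and Sult1d1. Perm1, a regulator of mitochondrial genes, was at 1.14 and 0 at P0 and at 16.3, 19.1 and 24.2 in adult CNT. The largest P0 gains were in Was, Ccdc8, Rspo1, Zkscan7, Sphkap, Zkscan2, Cpxm2 and Htr1f. Rspo1, which encodes a Wnt pathway agonist, was at 12.5 and 23.9 at P0 and at 2.72, 0 and 0 in adult CNT. Ccdc8 was at 43.3 and 42.8 at P0 and at 0 to 2.01 in adult samples. PC shared the Ccdc8 change, at 44.1 and 43.1 at P0 and 0.704 to 7.36 in adult samples. DCT shared the direction of the Perm1 change, at 5.27 and 2.46 at P0 and 34.1 to 41.6 in adult samples. Markers of other types moved with stage too. The summed endothelial markers in CNT nuclei were 133 and 126 at P0 and 54.4 to 65.3 in adult samples, and the NP markers 70.6 and 68.0 against 16.3 to 33.2. Their part in the genes higher at P0 was not tested.

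Whether stage acted differently in CNT than in other types was tested by interaction. Against the mean stage effect of the other 12 types, 581 of 27681 genes (2.10%) moved more towards adult in CNT and 1002 (3.62%) more towards P0. Of 12 calcium genes, 6 were among the former. For some genes this contrast had no usable SE, as for Trpv5 (1.21, SE 930) and Trpv6 (SE 1770). It could not decide for such genes, which count here as not passing. Against DCT alone and PC alone, references chosen after seeing the data, 43 genes (0.155%) moved more towards adult in CNT than in DCT and 34 (0.123%) less, and 319 (1.15%) and 432 (1.56%) did so against PC. Trpv5 changed by 3.20 ± 0.56 (log2 ± SE, adjusted p = 0.00144) more towards adult in CNT than in DCT, Slc8a1 by 2.10 ± 0.24 (7.09e-08) and Scnn1b by 2.09. These are signed differences, which a fall in DCT also raises. In DCT, Scnn1b gene activity was 105 and 88.4 at P0 and 21.6 to 33.0 in adult samples, while CNT held 117 to 168. Calb1 missed this threshold (adjusted p = 0.0543). Of the calcium genes, 4 of 12 passed against DCT and 4 of 12 against PC, all in the same direction. Ptges, a prostaglandin E synthase gene, had CNT gene activity of 121, 109.6, 147, 212 and 135 and DCT activity of 155, 133, 37.8, 55.1 and 37.0, an interaction of 2.21 ± 0.28. In the opposite sense, Cldn9, a neonatal claudin, fell from 50.1 and 51.6 to 5.44, 0 and 3.02 in CNT, and from 29.0 and 41.8 to 10.8, 11.02 and 12.6 in DCT.

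Sequence motifs were counted in the central 300 bases of peaks, on both strands. Among the 13910 peaks higher in CNT, GRHL (AACNGGTT) was held by 5.28%, against 2.62% of all tested peaks, HNF1 (GTTAATNAT) by 3.30% against 1.79%, ESRR (TCAAGGTCA) by 1.49% against 0.841%, the GATA factor motif (AGATAAG) by 4.67% against 3.23% and homeobox (TAATTA) by 9.16% against 6.78%. HNF4 (CAAAGTCCA), at 0.331% against 0.999%, SP and KLF (GGGCGG), at 12.1% against 19.9%, and ETS (ACAGGAAG), at 3.41% against 4.79%, were less frequent. TFAP2 (GCCNNNGGC) was at 13.1% against 14.6%. Steroid receptor (ACANNNTGT), FOX (TGTTTAC), AP-1 (TGANTCA), TEAD (GGAATG) and the NFI monomer (TTGGCA) were at 1.05 to 1.17 times their share of all tested peaks. The mean GC content was 49.9% in these peaks and 52.1% in all tested peaks, and its part was not tested. Of the 14 motifs, 3 are given for other contrasts, chosen after seeing their shares. GATA was held by 7.53% of the peaks higher in CNT than DCT and 1.51% of those lower. ESRR was held by 3.06% of the peaks higher in CNT than PC and 0.362% of those lower, and by 2.64% of the peaks higher in adult CNT and 0.432% of those higher at P0, which had a mean GC content of 50.4% and 58.3%. Homeobox was held by 17.2% of the 331 peaks lower in CNT than DCT. These are shares of peak sets of different size, with no test.

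**Figure D5:**
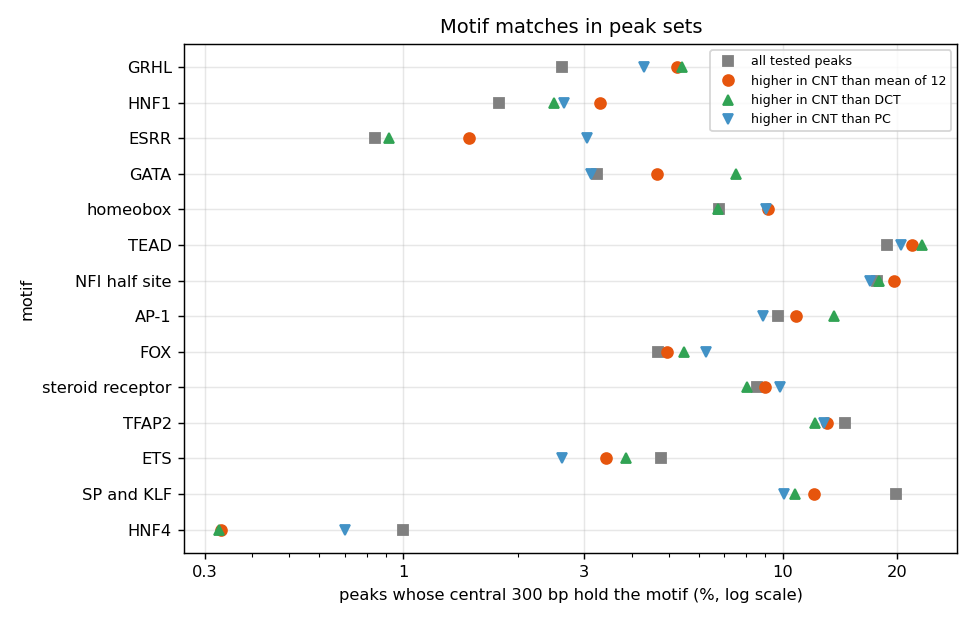
Percent of peaks whose central 300 bases hold each of 14 motifs (log scale), for all tested peaks and for peaks higher in CNT than the mean of the other 12 types, than DCT or than PC. GRHL is at 2.62% of all tested peaks and 5.28% of those higher in CNT, and GATA reaches 7.53% in the peaks higher in CNT than DCT.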

How the data were processed

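Nuclei were isolated from whole kidneys and profiled by droplet snATAC-seq. The authors aligned reads to mm10 with Cell Ranger ATAC 1.1.0, kept barcodes by fragment number, mitochondrial share and promoter ratio, clustered nuclei after batch correction, named clusters by marker genes and called peaks with MACS2 on the pooled nuclei of each cell type. The deposited matrix is binarized, so the counts used here are numbers of open calls (28316 nuclei, 300755 peaks). How doublets were treated is not given in the sources used here.

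Open calls were summed per sample and cell type (65 sums, each of at least 20 nuclei) and tested with edgeR 4.0.16 in R 4.3.3 (low features removed at a minimum count of 10 and total of 15, TMM scaling, sample as a block between cell types, BH 0.05). DESeq2 1.42.0, RLE scaling, no filter, no block, 1 stage alone, equal nuclei and omission of each sample were alternatives. Gene activity used GENCODE M21 gene bodies plus 2 kb upstream. Tests were checked on simulated data. The members, lists and alternatives were chosen with earlier results of these data known. Named genes were all tested list members, the 10 with the largest lead over the next cell type, the 8 with the largest fold in each direction against DCT and PC with no sample of the opposite sign (samples at 0 in both types allowed), and the 8 in each direction between stages that did not overlap. P0 and adult samples shared replicate numbers, but deviations of same-numbered samples were correlated at only 0.04 (peaks) and 0.06 (genes), over 2 pairs.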

Additional observations from a re-analysis of the deposited data

Results flagged for a closer look

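The effect of stage differed between CNT and other cell types, by an interaction test in edgeR (BH-adjusted), in 1583 genes against the mean of the other 12 types, in 77 against DCT and in 751 against PC. The references DCT alone and PC alone were chosen after seeing the data. Against the mean of 12, genes without a usable SE, such as Trpv5 (SE 930), could not be decided and count as not passing.

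Relative to DCT, the signed log2 change from P0 to adult was higher in CNT by 3.20 for Trpv5 (adjusted p = 0.00144), 2.10 for Slc8a1 (7.09e-08), 2.09 for Scnn1b (0.00047), 1.60 for Slc12a3 (0.00226), 1.55 for Fxyd2 (0.00407) and 0.80 for Pth1r (0.0356). A fall in DCT raises this difference as well. DCT gene activity of Trpv5 was 39.5 and 39.3 at P0 and 10.8 to 12.6 in adult samples. Scnn1b did not pass between stages within CNT.

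Relative to PC, the signed change was higher in CNT by 2.17 for Calb1 (adjusted p = 0.000305), 2.12 for Slc12a3 (1.79e-05), 1.86 for Trpm6 (9.49e-05), 1.85 for Slc8a1 (2.18e-08), 0.98 for Klhl3 (0.00185), 0.93 for Kcnj1 (0.0312), 0.92 for Vdr (0.0173), 0.80 for Pth1r (0.00416) and 0.76 for Wnk1 (0.00547). Of 7 PC genes, 3 had a lower signed change in CNT, with -2.21 for Elf5 (5.95e-09), -2.01 for Fxyd4 (0.0277) and -1.79 for Aqp3 (0.000577).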

How the results depend on the processing

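Counts of peaks and genes depended on samples and tools. The named gene values below were chosen because they passed in the main fit. Most alternatives reuse its sums, so a kept direction is little support. Of 275 named gene values, the alternatives gave the same call 2595 times, lost it 469 times and turned the direction 13 times. In at least 1 omission of a sample, 23 of 29 named calls against DCT and 23 of 54 against PC were lost. So were 25 of 108 against the mean of 12 and 41 of 84 between stages. With 1 sample left out, the counts ranged from 13243 to 21803 of 21155 peaks against the mean of 12 (13243 without P56 sample 2), 351 to 897 of 1858 against DCT, 1988 to 5263 of 6582 against PC and 1542 to 7863 of 5582 between stages. Gene counts ranged from 3866 to 5435 of 5993, 88 to 286 of 351, 516 to 1734 of 1790 and 1514 to 8118 of 4863. Peaks higher than each other type numbered 0 in each omission, and genes 0 to 1. The CNT share difference ranged from 1.31 to 2.18 and the DCT scale from 46.6 to 56.99.

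DESeq2 gave 0 specific peaks, 989 against DCT, and 2629 peaks and 1964 genes between stages. RLE scaling gave 0 and 1219, no filter gave 10483 against PC, and equal nuclei gave 2187 stage peaks. The adult samples alone gave 11 specific peaks, 5 specific genes (0 with all samples by edgeR), 2871 peaks and 991 genes against DCT and 3567 genes against PC. The P0 samples alone gave 0, 233 and 2589 peaks against DCT and PC, 3870 genes against the mean of 12 and 1120 against PC. Of DCT, CNT, PC and IC nuclei, the CNT share differed by 4.49 points. The stage interaction gave 77 genes against DCT and 751 against PC.

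Replicate numbers shared by P0 and P56 samples do not pair them by any label, with 2 pairs only. A replicate block gave 6060 stage peaks and 5251 stage genes. No replicate block in the cell type tests gave 15836 peaks against the mean of 12, 0 specific, 467 against DCT and 2382 against PC, and 3811, 87 and 567 genes.

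In the P0 samples alone the direction turned for Trpv5 (-0.059), Slc8a1 (-0.47) and Ctps2 (-0.088) against DCT, for Elf5 (0.18), Esrrb (-0.059), Ankrd66 (-0.047) and Klk1b11 (-0.19) against PC, and for Slc12a3 (-0.28), Esrrb (-0.24), Perm1 (-1.60), Adh6a (-1.14) and Klk1b11 (-0.65) against the mean of 12. In adult samples alone it turned for Emx2 (-0.013). The cause was not tested. Depth limits genes with few open calls in 51 and 57 P0 DCT nuclei.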
